A study of Sus scrofa with 12 samples.

Results

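Hatching is the step at which a blastocyst leaves the zona pellucida, the glycoprotein coat laid down around the oocyte. As background, the trophectoderm, the outer epithelium of the blastocyst, pumps ions and water into the blastocoel so that the embryo expands and thins the coat. Proteases made by trophectoderm cells are held to weaken it further, and the inner cell mass goes on to form the fetus. A parthenote arises from an oocyte activated without a sperm and so carries no paternal genome, yet it can form a blastocyst that hatches. The comparison described here asked which transcripts differed between the expanded blastocyst (XB) and the hatched blastocyst (HB) in porcine embryos from parthenogenetic activation (PA).

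The comparison took 6 of the 12 arrays of the series, 3 of PA XB and 3 of PA HB, and joined the arrays that carry the same replicate number in their titles into 3 pairs. Each array was hybridized with the RNA of a pool of 5 embryos, in Cy5, against a common reference pool of porcine embryos from the germinal vesicle stage to day 11, in Cy3. All PA embryos came from oocytes matured in vitro, activated with calcium ionomycin and then 6-dimethylaminopurine (DMAP), and cultured in PorcPRO mNCSU-23 medium. Embryos of the other 6 arrays, 3 of XB and 3 of HB, were derived in vivo (IVV) from inseminated gilts. Those arrays enter where the hatching changes of PA and IVV embryos are set side by side. They also enter the fits and normalizations of all 12 arrays, and the choice of 1 probe per gene. Each value is the log2 of the sample signal over that of the reference, so a difference of 1 between stages is a 2-fold change. A pool holds whole embryos, so fewer cells of a type and less RNA per cell cannot be told apart, and a ratio to a reference of embryos cannot show that a transcript is absent.

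The collection times in the labels differed between the pairs. PA XB replicate 1 is labelled 5, PA XB replicates 2 and 3 are labelled 6, and all PA HB arrays are labelled 7, so that pair 1 spans 2 units of time and pairs 2 and 3 span 1. The labels give the unit as hours after fertilization in vitro, although the culture is described in days. Over all probes, the arrays of replicate 1 correlated with the other PA arrays at r of 0.776 to 0.817, while the PA arrays of replicates 2 and 3 correlated among themselves at 0.884 to 0.908. Trophectoderm genes had a median log2 ratio of 0.00 to 0.24 on the PA XB arrays and 0.18 to 0.57 on the PA HB arrays over 15 genes. Oocyte and maternal transcripts lay at -1.15 to -0.82 and -1.30 to -0.64 over 32 genes. For 14 markers of cumulus and granulosa cells, the array medians were between -0.24 and 0.19 in PA XB and between -0.19 and -0.01 in PA HB.

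From XB to HB, 11 named genes of the 7752 on the array changed in the paired comparison of PA embryos, a share of 0.142%. Of these, 7 genes rose, led by the amino acid transporter SLC36A2 and the small heat shock protein CRYAB, and 4 fell, among them the folate receptor FOLR1 and the calcium-dependent kinase PNCK. A gene is counted as changed where a probe had a Benjamini-Hochberg adjusted p of at most 0.05 in limma, over all 24908 probes, and a change of at least 2-fold. In probes, 13 were higher and 11 lower in PA HB, and 12 of these 24 have no gene symbol. The 6 arrays did not overlap between the stages for 23 of the 24 probes. Those probes were chosen by a difference between the same arrays, so this adds no support to them. At an unadjusted p under 0.05, 1909 probes were below the limit, where 1245.4 would be below it if no transcript differed. Single pairs weighed on the count, since leaving out replicate 1, 2 or 3 gave 1, 20 and 17 genes, of which 1, 11 and 6 were among the 11. Quantile normalization of the arrays left SLC36A2 alone, averaging the probes of each gene left 7 genes, a replicate block within all 12 arrays left SLC36A2 and CRABP2, and the 6 arrays without the block left none.

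SLC36A2, a proton-coupled transporter of small amino acids such as glycine and proline, had log2 ratios of 1.07, -0.17 and 0.09 in PA XB replicates 1 to 3 and 3.59, 3.77 and 3.49 in PA HB. All PA HB arrays were well above all PA XB arrays, and the PA HB arrays lay closer together (SD 0.14) than the PA XB arrays (SD 0.65). The pairs differed by 2.52, 3.94 and 3.40, and the mean change of 3.29 (SE 0.27, n = 3 pairs, limma adjusted p = 0.00197) corresponds to a 9.75-fold rise. It was the largest change of a named gene in the paired comparison. It was also the 1 named gene that changed when replicate numbers were disregarded, in a fit of group means to all 12 arrays (adjusted p = 0.0022), where 0.0129% of named genes changed. That unpaired call was lost after scaling or quantile normalization and with the 6 PA arrays alone. A probe without a symbol rose nearly as much, from -0.41, 0.00 and 0.95 to 3.22, 3.72 and 3.37, and passed the limits in both fits. The other solute carriers went less far. Of 167 measured, only SLC36A2 changed, with a median over the list of 0.07 beside 0.00 over all named genes.

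CRYAB encodes alpha B-crystallin, a small heat shock protein that binds unfolding proteins. Its log2 ratios were -0.01, -1.18 and -1.06 in PA XB and 2.79, 0.78 and 2.13 in PA HB, so that replicate 1 was highest at both stages and replicate 2 lowest. The groups did not overlap, although PA HB replicate 2 stood nearer to PA XB replicate 1 than to PA HB replicate 1. Within pairs the differences were 2.79, 1.96 and 3.18, a mean of 2.65 (SE 0.25, limma adjusted p = 0.00548) or 6.26-fold. Taken without the pairs, the same mean had an SE of 0.72 and an adjusted p of 0.414. The spread of CRYAB in PA embryos was largely between replicate numbers rather than within them. Its SD was 0.65 in PA XB and 1.02 in PA HB, beside 0.62 for the pair differences. Differences between unrelated arrays would have an SD above that of either stage.

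CRABP2, a carrier of retinoic acid in the cytoplasm, had 0.13, -0.89 and -0.05 in PA XB and 1.68, 1.03 and 1.65 in PA HB. Replicate 2 was again the lowest at both stages, and the pair differences of 1.55, 1.92 and 1.70 were close to each other. The mean rise was 1.73 (SE 0.21, adjusted p = 0.0214 in limma), or 3.31-fold. GNPDA1, an enzyme that converts glucosamine-6-phosphate to fructose-6-phosphate, went from -0.87, -1.52 and -0.99 to 0.84, 0.50 and 0.33, with no overlap. Its mean rise was 1.68 (SE 0.22, limma adjusted p = 0.0274) on the probe that changed. The other GNPDA1 probe had 0.09 (SE 0.23), so the probes of this gene disagree.

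KCTD3 belongs to the family of KCTD proteins, whose members share a domain with potassium channels and often bind cullin ubiquitin ligases. It had -0.96, -0.69 and -0.66 in PA XB and 0.64, 0.69 and 1.21 in PA HB on the probe that changed, a mean rise of 1.62 (SE 0.21, adjusted p = 0.0274 in limma). The remaining KCTD3 probes had 0.29 (SE 0.21) and -0.22 (SE 0.28), and the latter had a fall of 1.08 in pair 1. The rise thus rests on 1 of 3 probes. By quantitative PCR, the paper found no significant KCTD3 change from PA XB to PA HB, whereas it did find the rise of SLC36A2. Among 31 measured genes of the KCTD family and other cullin 3 adaptors, KCTD3 was the only one to change.

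The remaining genes that rose take part in signalling at the cell membrane. PLCD3, a phospholipase C that cleaves a membrane phosphoinositide, had 0.45, -0.99 and -0.71 in PA XB and 1.92, 0.31 and 1.17 in PA HB. PA XB replicate 1 was above PA HB replicate 2, so the groups overlapped, but each pair rose, by 1.46, 1.31 and 1.88. The mean was 1.55 (SE 0.21, limma adjusted p = 0.0303), against an SE of 0.39 and an adjusted p of 0.369 without the pairs. P2RX4, a cation channel opened by extracellular ATP, went from -0.12, -0.13 and -0.57 to 1.35, 1.04 and 1.18 without overlap, with a mean of 1.46 (SE 0.21, limma adjusted p = 0.0363).

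Of the genes that fell, FOLR1, a membrane receptor that takes up folate, was far above the reference at both stages. Its log2 ratios were 4.44, 4.39 and 5.10 in PA XB and 3.06, 3.18 and 3.64 in PA HB, so that every hatched pool was lower but still well above the reference. The pairs differed by -1.38, -1.22 and -1.46, the closest agreement of any gene that changed (SD 0.12). The mean of -1.35 (SE 0.20, limma adjusted p = 0.0423) leaves 0.392 of the PA XB level. PNCK, a kinase activated by calcium and calmodulin, had 2.89, 3.02 and 2.29 in PA XB and 0.64, 1.04 and 1.26 in PA HB. Its mean was -1.76 (SE 0.26, adjusted p = 0.0363 in limma), and the pairs were less alike, with -2.26, -1.98 and -1.03.

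The other genes that fell are known only by a locus number. LOC100514912, listed as protein coding in RefSeq, had -0.63, -0.31 and -0.69 in PA XB and -2.18, -2.51 and -2.32 in PA HB, a mean of -1.80 (SE 0.22, limma adjusted p = 0.0228). A further probe of LOC100514912 fell by 1.88 (adjusted p = 0.0285), and the third had -1.04 (SE 0.22) and did not pass. LOC100512298, listed as a pseudogene, went from -0.67, -0.50 and -0.61 to -2.11, -1.75 and -2.43, a mean of -1.51 (SE 0.21, limma adjusted p = 0.0322). Both were lower on every PA HB array than on any PA XB array. Their values were also alike in IVV embryos. The means in IVV XB and IVV HB were 0.50 and -2.35 for LOC100514912 and 0.41 and -2.06 for LOC100512298. Whether their probes read related sequences was not tested, so the loci may not be separate observations.

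Just beyond the limit on the adjusted p were genes with all 3 pairs at least 2-fold in 1 direction and no overlap of the 6 arrays. There were 16 such genes in all, 0.206% of the named genes, 9 higher and 7 lower in PA HB, and 10 of them are among the 11 that changed. FXYD4, a small membrane protein that modulates the sodium pump, had pair differences of 1.31, 2.04 and 1.16 (mean 1.50, SE 0.23, limma adjusted p = 0.0513). S100A11, a calcium-binding protein, had the closest PA XB arrays of these genes, 1.84, 1.88 and 1.78, against 2.95, 3.23 and 2.78 in PA HB (mean 1.16, adjusted p = 0.0848 in limma). SYCP2, a protein of the synaptonemal complex of meiotic chromosomes, had 1.42 (limma adjusted p = 0.0613) on 1 probe and -1.38 (adjusted p = 0.068) on another, and no direction can be given for it. On the lower side were LOC100511846, with -1.70 (limma adjusted p = 0.0513), HARBI1, a nuclease-like protein derived from a transposon, with -1.81 (adjusted p = 0.0644), and COPS7A, a subunit of the COP9 signalosome, with -1.63 (adjusted p = 0.0697). The other probes of HARBI1 and COPS7A had means between -0.09 and 0.44.

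**Figure D1:**
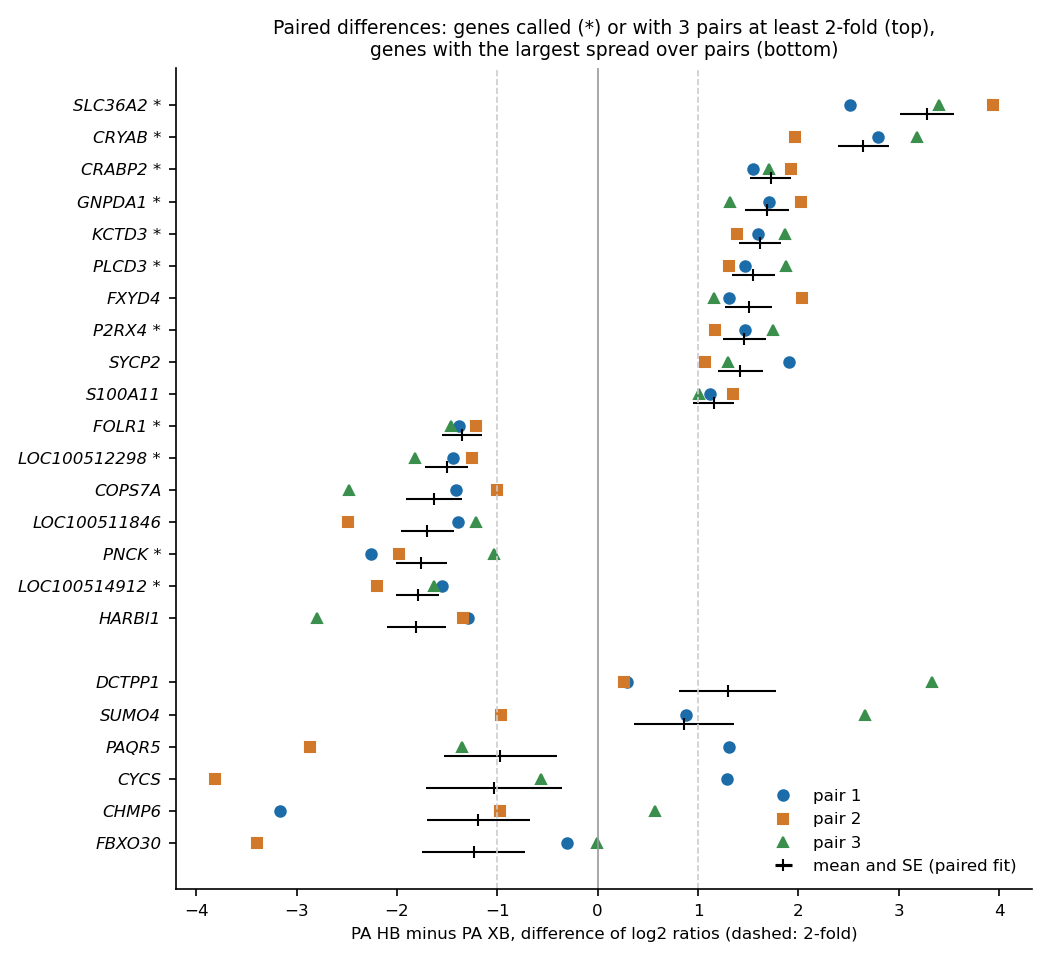
Difference of log2 ratios, PA HB minus PA XB, in each of the 3 pairs (coloured symbols) with the mean and its standard error in the paired fit (black). The upper block holds the genes that changed (asterisk) and others with all 3 pairs at least 2-fold, and the lower block the 6 genes whose pairs disagreed most, such as CYCS at 1.29, -3.82 and -0.57.

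How far the pairs agreed was examined over all genes. All 3 pairs were higher in PA HB for 1235 named genes (15.9%) and lower for 1176 (15.2%). Across all probes the differences of pair 1 correlated with those of pair 2 at r = 0.126 and with those of pair 3 at 0.123, and pairs 2 and 3 correlated at 0.103. These are correlations across probes, which are not independent replicates. Pair 1, the pair with the longer labelled interval, had the widest spread of differences (median absolute deviation 0.48) and 1433 probes at 2-fold or more, pair 2 had 0.39 and 1152, and pair 3 had 0.35 and 518. The part of the collection time in this was not tested. The SD of the 3 paired differences had a median of 0.33 over named genes, where the SDs within groups give 0.43 for unpaired arrays, and it was smaller than the latter for 63.8% of genes.

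**Figure D2:**
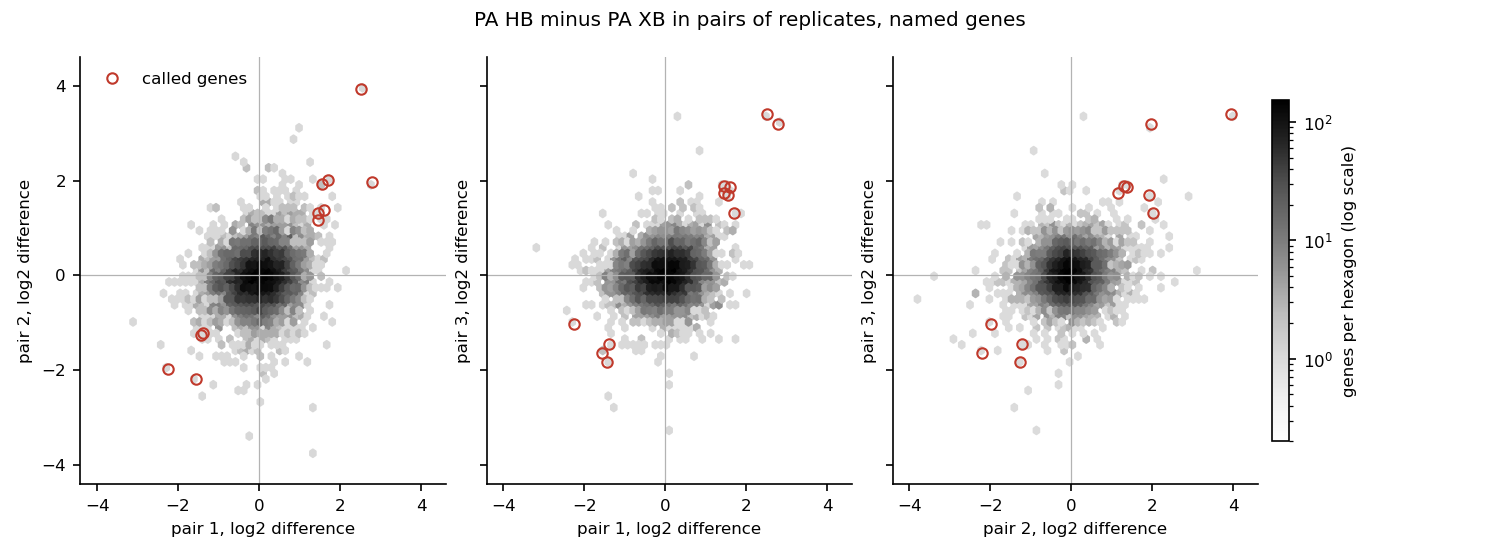
Difference of log2 ratios, PA HB minus PA XB, in 1 pair against that in another for the named genes (grey hexagons, darker for more genes on a log scale), with the 11 genes that changed circled in red. The cloud is nearly round, as the correlations of 0.126, 0.123 and 0.103 over all probes describe, and the circled genes lie along the rising diagonal on both sides of it.

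In some genes 1 pair stood far from the others. CYCS, cytochrome c of the respiratory chain, had 1.29, -3.82 and -0.57, and its PA HB replicate 2 array stood at -3.74, far below the other PA arrays, which were between -0.92 and 0.41. FBXO30, a component of ubiquitin ligases, had -0.31, -3.39 and -0.00, and PAQR5, a membrane progestin receptor, had 1.31, -2.86 and -1.35. In each of these genes the low value was that of PA HB replicate 2. DCTPP1, which hydrolyses dCTP, had 0.29, 0.26 and 3.33, and SUMO4, a SUMO protein, had 0.88, -0.96 and 2.67, both with their highest value on PA HB replicate 3. CHMP6, an ESCRT-III subunit, had -3.17, -0.97 and 0.57 on 1 probe, and a mean of -0.18 on the other.

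Proteases are the group most often linked to hatching. Of 31 measured proteases and inhibitors none passed the test, and the median change was 0.11. In PA HB, 8 had all 3 pairs higher (25.8%) and 2 all 3 pairs lower (6.5%). Over all named genes these shares were 15.9% and 15.2%, and the counts of the lists below are to be read beside them. LGMN, the lysosomal cysteine protease legumain, had -0.58, -0.44 and -0.10 in PA XB and 1.19, 1.18 and 0.38 in PA HB, without overlap. Its mean of 1.29 (SE 0.27) had an adjusted p of 0.173 in limma, with pair 3 at 0.48 and the other pairs at 1.77 and 1.62. CTSH, cathepsin H, had pair differences of 0.55, 1.25 and 0.90, and DPP4, a cell surface peptidase that removes dipeptides from the ends of peptides, 0.75, 1.01 and 0.53. DPP4 overlapped between the stages, with PA XB replicate 1 at 1.89 and PA HB replicate 3 at 1.84. The other DPP4 probe had a mean of -0.02. CTSK, cathepsin K, had 0.54, -0.06 and 1.15 and overlapped between the stages. In the other direction, the largest mean fall of the list was that of TIMP2, at -0.82.

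Lysosomal proteins and subunits of the V-ATPase, the proton pump that acidifies lysosomes, numbered 36. None passed, 12 had all 3 pairs higher (33.3%, beside 15.9% of all named genes) and 5 all 3 pairs lower, with a median of 0.15. That median was 0.07 after quantile normalization, and the medians of pairs 1, 2 and 3 were 0.04, 0.03 and 0.30. NPC1, which moves cholesterol out of lysosomes, had pair differences of 0.86, 1.79 and 1.36 (mean 1.33, SE 0.23, limma adjusted p = 0.0803). CD63, a membrane protein of late endosomes, had 0.99, 1.01 and 0.68, and PSAP, the precursor of the saposins, had 1.10, 0.48 and 1.11. ATP6V0D2, a V-ATPase subunit, was among the 5 that went the other way, at -0.79, -1.67 and -0.96. The list thus held members in both directions. PA XB and PA HB did not overlap for any of the 4 genes named, but these had the lowest p of the list, so this follows largely from the choice.

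Among membrane transport genes, 37 of the 167 solute carriers had all 3 pairs higher (22.2%) and 17 all 3 lower (10.2%). SLC41A3, a magnesium transporter, had a mean of 0.94 (SE 0.22, limma adjusted p = 0.245), and SLC13A4, a sulfate transporter, had 0.65 (SE 0.22). SLC25A33, a mitochondrial carrier of pyrimidine nucleotides, had -0.75 (SE 0.21), with all PA HB arrays below all PA XB arrays. Of 22 genes of tight junctions, adhesion and the blastocoel pump, 2 had all pairs higher, 2 all pairs lower (9.1% each), and none passed.

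Antioxidant and glutathione enzymes had 7 of 30 genes with all pairs higher (23.3%) and 1 with all pairs lower (3.3%), and none passed. GPX1, a glutathione peroxidase, had -0.27, -0.49 and 0.30 in PA XB and 1.37, 0.63 and 1.18 in PA HB (mean 1.22, SE 0.22, limma adjusted p = 0.0972). The peroxiredoxins PRDX5 and PRDX3 had 0.98 (SE 0.32) and 0.48 (SE 0.20) on 1 probe each, while their other probes had -0.22 and 0.10 for PRDX5 and 0.09 for PRDX3.

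Annexins and S100 proteins, which bind calcium, had 6 of 18 genes with all pairs higher (33.3%) and 1 with all pairs lower (5.6%). All named genes had 15.9% and 15.2%. ANXA1, annexin A1, had pair differences of 0.31, 2.26 and 1.03, and S100A7 had -1.67, -1.19 and -0.25. Neither passed, with limma adjusted p of 0.335 and 0.329. Of 76 genes for actin, myosin, tubulin and keratin and their partners, 18 had all pairs higher (23.7%) and 11 all pairs lower (14.5%). MYL7, a myosin light chain, had 1.32, 0.76 and 1.54 (mean 1.21, limma adjusted p = 0.102). TAGLN, an actin-binding protein, had 0.97 (SE 0.21), whereas its relative TAGLN2 had -1.04 (SE 0.23), and neither of these overlapped between PA XB and PA HB.

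Lineage markers gave few differences between the stages. Of 15 trophectoderm genes, 4 had all pairs higher (26.7%, beside 15.9% of all named genes) and 2 all pairs lower (13.3%, beside 15.2%), and none passed. Their median was 0.05, and -0.12 after quantile normalization. ELF5, a transcription factor of the trophoblast, had pair differences of 0.71, 0.83 and 0.54 (mean 0.70, SE 0.20, limma adjusted p = 0.413), SPINT1, a membrane inhibitor of serine proteases, had 0.64, and KRT18, a keratin of simple epithelia, had -0.33. Of the 8 genes of the inner cell mass and pluripotency measured, none had all pairs higher and 3 had all pairs lower (37.5%), with a median of -0.12. Among 9 primitive endoderm genes, COL4A1, a collagen of basement membranes, had -1.83, -0.42 and -0.14, and APOA1, an apolipoprotein, had 0.77, -0.01 and 1.46. The other COL4A1 probe had a mean of -0.26 (SE 0.23), with pair 3 at 0.02. AIF1, a calcium-binding protein and macrophage marker, was 1 of 10 blood and immune markers, and it stood high at both stages, with 3.54, 3.85 and 3.39 in PA XB and 4.25, 5.18 and 4.32 in PA HB. On the arrays the median of those 10 markers was -0.19 to 0.37 in PA XB and 0.28 to 0.40 in PA HB, 2 had all pairs higher and none all pairs lower, and their part in other results was not tested.

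Lists with more genes lower than higher in all pairs included oocyte and maternal transcripts, with 1 of 32 genes higher in all pairs (3.13%) and 7 lower (21.9%). Mitochondrial ribosomal proteins had 6 of 52 higher and 15 lower (28.8%). Their named members went both ways, with MRPS16 at -0.59 and MRPL58 at 0.79. MRPL13 had -0.55 on 1 probe and 0.05 on the other, and the MRPL11 probes, at 0.69, 0.20 and -0.47, disagree in direction. Heat shock proteins and chaperonins, a list that leaves out CRYAB, had 6 of 62 higher and 14 lower, with the co-chaperones DNAJC18 and DNAJC22 at -0.84 and -0.74 and the chaperone HSP90AA1 at 0.50 on 1 probe and -0.13 on the other. For proteasome subunits the counts were 3 and 7 of 37, with PSMD6 at -0.72 and the activator PSME3 at -0.68. No gene of these lists passed the test, and the medians of the 4 lists were between -0.09 and -0.05. The median of the oocyte list was 0.02 after quantile normalization, and that of the heat shock list 0.01 without replicate 2.

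Other genes of metabolism and growth were mixed. The glycolytic enzymes GAPDH and ENO1 had 1.02 (SE 0.21) and 0.66 (SE 0.21), while glycolysis and pentose phosphate genes as a list had 4 of 22 with all pairs higher and 4 lower. Citrate cycle genes had 3 of 17 with all pairs higher and 6 lower (35.3%), with a median of -0.15, and -0.09 after quantile normalization. In the respiratory chain NDUFV1 had 0.95 and NDUFS3 had -0.75, both subunits of complex I. Of 47 cell cycle genes, 8 were higher and 3 lower in all pairs, with RB1, the retinoblastoma protein, at 1.16 (limma adjusted p = 0.108), CDK2 at 0.61 on 1 probe and -0.03 on the other, and CDC20, which activates the anaphase-promoting complex, at 0.95. MBD3, a subunit of the NuRD chromatin complex, had -1.03 and did not overlap between the stages. FABP5, a fatty acid carrier, had -1.19. RPL13A, a ribosomal protein, had 1.03 on 1 probe and -0.02 to 0.17 on the other 4, and EIF4E2, a cap-binding protein, had -0.79 on 1 probe and -0.04 and 0.09 on the others. HSD11B2, which inactivates cortisol, had 0.79. The growth factor PDGFA had -0.88 and the Wnt co-receptors LRP5 and LRP6 had 0.77 and 0.59 on the probes chosen, against -0.28 and -0.03, 0.24 and 0.05, and -0.22 on their other probes. None of these genes passed the test.

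**Figure D3:**
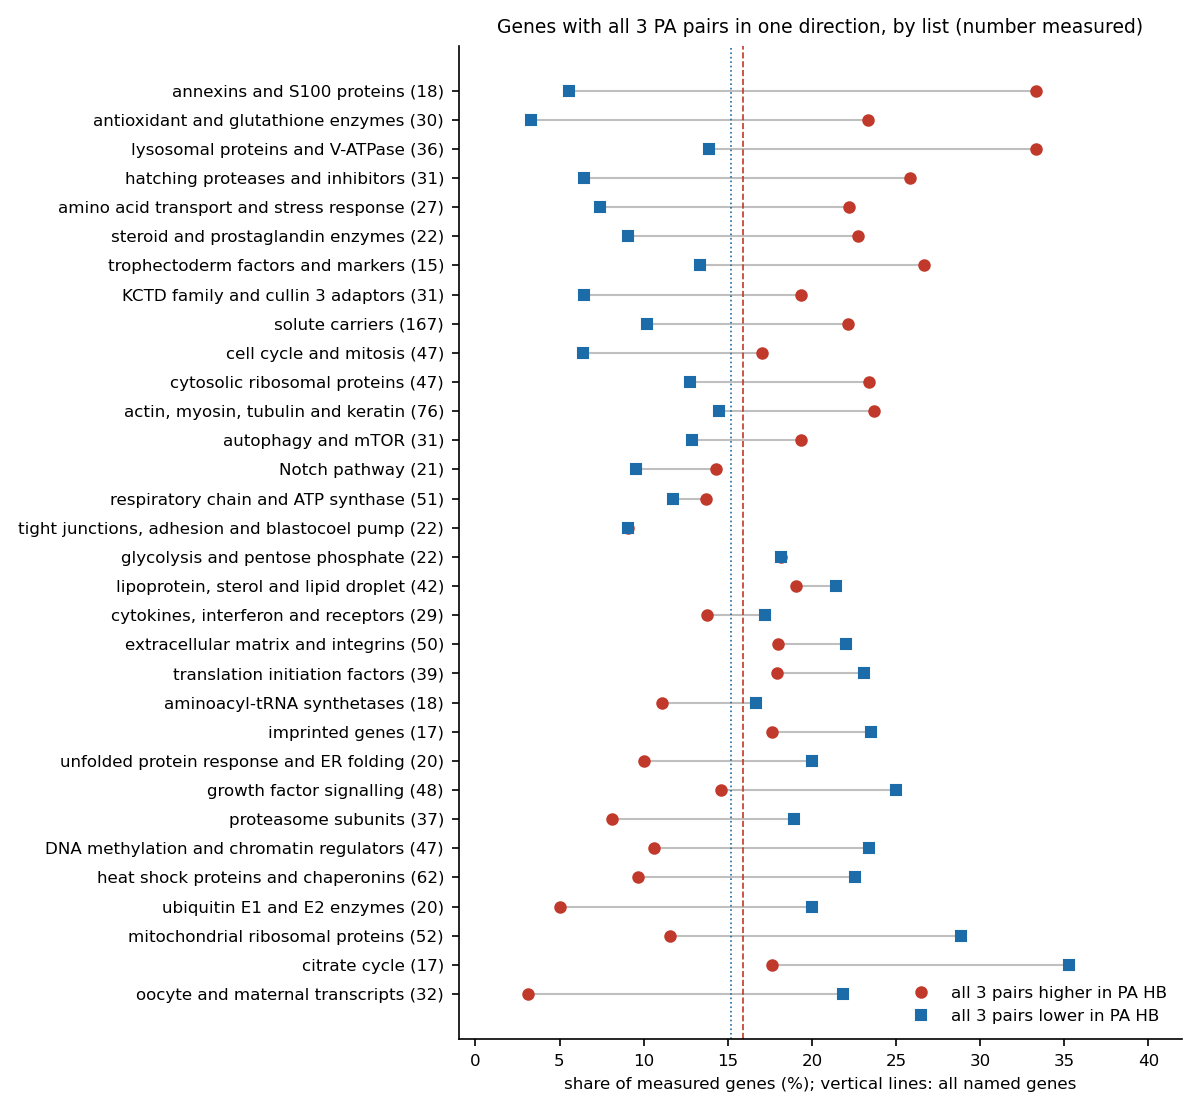
Share of the measured genes of each list (horizontal axis, in percent) with all 3 pairs higher in PA HB (red circles) or all 3 lower (blue squares), for the lists of 15 or more genes shown, with the number measured in brackets. Vertical lines give the shares over all named genes, 15.9% and 15.2%. Lysosomal proteins and the list of annexins and S100 proteins reach 33.3% higher. Citrate cycle genes reach 35.3% lower, and mitochondrial ribosomal proteins 28.8% lower.

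The hatching change of PA embryos was then set beside that of IVV embryos. By the labels, IVV XB arrays were collected at 5, 5 and 6 and all IVV HB arrays at 5.5, so that IVV XB replicate 3 is labelled later than the hatched pools. In the fit of 12 arrays, 16 named genes changed from IVV XB to IVV HB (0.206%), 9 upward and 7 downward. On the probes concerned, the mean PA change went the same way for 15 of the 16, all but APOE, an apolipoprotein. All 3 PA pairs went the same way for 8 of the 9 genes and for 6 of the 7, where 15.9% and 15.2% of all named genes did so. The exceptions were APOE and MAP1LC3B, a protein of autophagosomes. The PA change was smaller in size than the IVV change for all 16 genes. Since these genes were chosen by their IVV change, that side of the difference is not independent of the choice. Those that rose in IVV had a median of 1.47 in IVV and 0.69 in PA embryos, and those that fell had medians of -2.09 and -1.002.

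GNPDA1, LOC100512298 and LOC100514912 changed in both kinds of embryo, and both loci had similar values in each group. GNPDA1 had 1.76 (SE 0.26) in IVV and 1.68 (SE 0.22) in PA embryos, a difference of -0.07 (SE 0.37). NPC1 and GAPDH had 2.01 and 1.47 in IVV embryos beside 1.33 and 1.02 in PA embryos. HSP90AA1, STS, a steroid sulfatase, and ACP6, a lipid phosphatase, had 1.47, 1.17 and 1.35 in IVV embryos and 0.50, 0.69 and 0.38 in PA embryos, and the other ACP6 probe had -0.04 in PA embryos. Among genes lower after hatching, ATP6V0D2 had -2.09 and -1.14, and SFT2D2, a vesicle transport protein, had -1.47 and -1.002. PQLC3, a membrane protein, had 1.30 and 0.89, without passing the test in either.

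Among these 16 genes the largest gaps were in IL6, DPP4, MAP1LC3B and APOE. DPP4 had 3.09 (SE 0.38) in IVV embryos against 0.76 (SE 0.21) in PA embryos, and the difference of -2.32 (SE 0.54) did not pass the test (limma adjusted p = 0.586). The starting levels differed, with a mean DPP4 log2 ratio of 1.50 in PA XB and -0.29 in IVV XB. After hatching, DPP4 stood at 2.26 in PA HB and 2.80 in IVV HB. APOE had 1.46 against -0.02, and MAP1LC3B had -1.66 against -0.11, also without passing (limma adjusted p = 0.254 and 0.474). MAP1LC3B was already low in PA XB, at -2.39, beside -1.18 in IVV XB and -2.84 in IVV HB. APOE had -0.98 in PA XB and -1.01 in PA HB, beside -1.02 in IVV XB and 0.45 in IVV HB. IL6, the cytokine interleukin 6, had 0.80, 0.93 and 0.29 in PA XB and 0.33, 0.23 and 0.06 in PA HB, with pair differences of -0.47, -0.70 and -0.23. In IVV embryos it fell by 3.13 (SE 0.24), from a mean of 2.08 in IVV XB to -1.06 in IVV HB. The difference of 2.66 (SE 0.34, limma adjusted p = 0.0254) made IL6 the 1 named gene, 0.0129% of those tested, whose hatching change differed between PA and IVV embryos. The probe without a symbol that rose nearly as much as SLC36A2 also passed. Its difference was 3.39 (SE 0.43, limma adjusted p = 0.0254). With the replicate number as a block in the 12 arrays, 0 named genes passed.

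Of the other genes that changed in PA embryos, CRABP2 had 1.08 (SE 0.29) in IVV embryos, and KCTD3, PLCD3 and P2RX4 had 0.11, 0.23 and 0.54 there. SLC36A2 had 0.74 (SE 0.34) in IVV embryos, and the difference of 2.54 (SE 0.48) had a limma adjusted p of 0.3. A comparison of PA with IVV embryos shares no arrays between its sides, but both share the reference pool. CRYAB had -1.38 (SE 0.72) in IVV embryos, although replicate 3 had 1.46, and FOLR1 and PNCK had 0.32 (SE 0.31) and 0.58 (SE 0.30). Each mean was opposite in sign to that of PA embryos, but none passed the test in IVV embryos. The limma adjusted p of the difference between PA and IVV embryos was 0.679, 0.714 and 0.281. None of these differences passed the test.

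**Figure D4:**
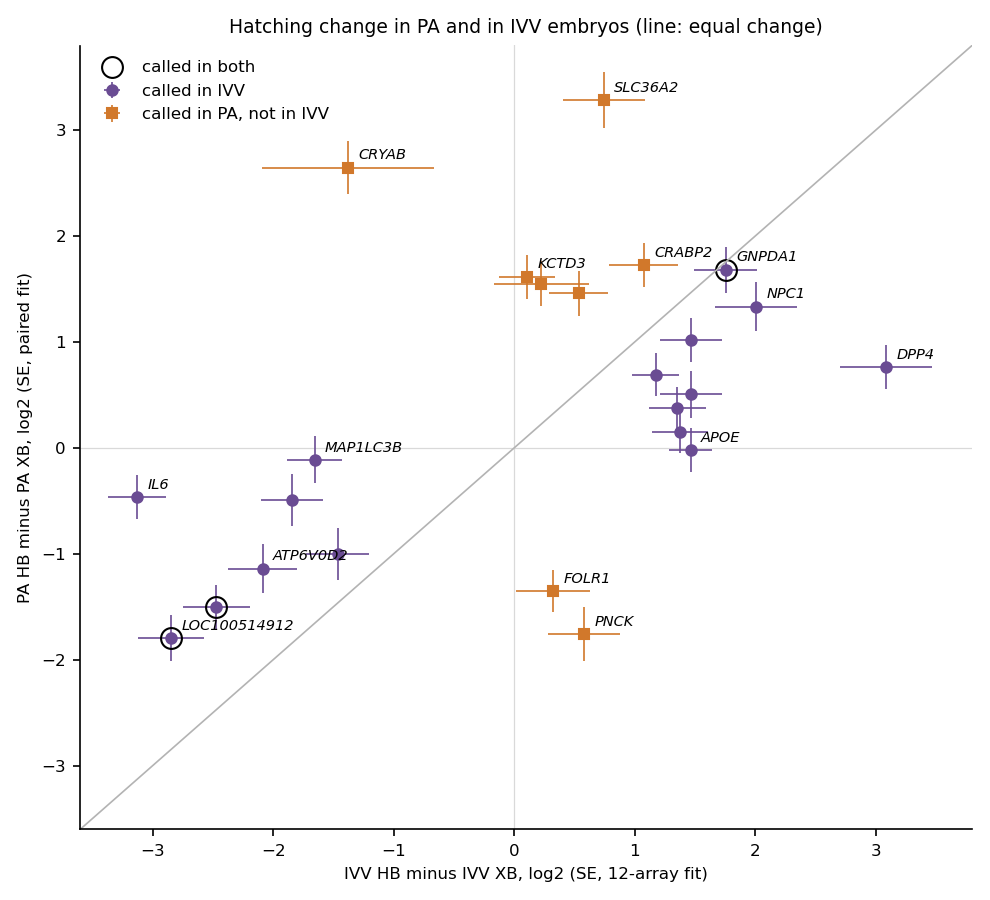
Hatching change (HB minus XB, log2) in IVV embryos from the fit of 12 arrays (horizontal axis) and in PA embryos from the paired fit (vertical axis), with standard errors, for genes that changed in either. The 16 genes that changed in IVV (purple circles) lie between the horizontal line at 0 and the line of equal change, apart from APOE at -0.02, and SLC36A2 and CRYAB (orange squares) stand far above it.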

How the data were processed

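The deposited log2 ratios, sample (Cy5) over reference (Cy3), cover 24908 probes of the EMPV1 array. To make them, the authors amplified the RNA before labelling, subtracted the local background and applied a global loess to each array in FlexArray. No value was missing, and arrays were not normalized against each other here. Array medians lay between -0.09 and -0.02. Background subtraction makes ratios of dim spots noisy, and the ratios do not show how bright a spot was. Arrays are few, and their number limits the precision.

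Gene symbols came from the platform annotation, updated through RefSeq: 10735 probes have 1 symbol, 14173 have none, and 7752 genes are named, 1875 with more than 1 probe. Each gene is given by the probe of lowest moderated F p over the 4 groups, or by its changed probe.

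The paired comparison was a limma 3.58.1 fit (R 4.3.3, package data.table, version 1.17.8) of the 6 PA arrays with stage and replicate number as terms (2 residual and 8.60 prior degrees of freedom). The labels do not say what the number stands for, and p-values measure only the spread between these pools. Pairing followed the replicate number by design. Deviations from the group means correlated at 0.45, 0.32 and 0.22 between PA XB and PA HB arrays of the same number, and at -0.37 to 0.12 otherwise. These values come from the same 6 arrays, and deviations within a stage cancel out, so they are no independent check of the pairing. The array numbers within the pairs were consecutive, 5 and 6, 7 and 8, and 9 and 10. Group means in all 12 arrays gave the unpaired comparison (8 residual and 5.64 prior degrees of freedom) and the difference between PA and IVV changes. All probes entered the Benjamini-Hochberg adjustment. The fits were tested on simulated data.

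Members and lists were chosen with earlier results of these data known. Genes are named if changed, if all 3 pairs were at least 2-fold without overlap, if named by the paper for hatching, if among the 4 lowest p of 1 of 42 lists, or if among the 6 most discordant, and not all that qualify are described. One list is not reported here. Alternatives were scaling or quantile normalization of the arrays, robust moderation, means of a gene's probes, the more variable 50% of probes, no fold limit, no replicate block or a block in 12 arrays, array weights, the PA arrays alone, and each pair or array left out. Python 3.11.15 with matplotlib 3.10.9 drew the plots.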

Additional observations from a re-analysis of the deposited data

Results flagged for a closer look

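The hatching change of IL6 differed between PA and IVV embryos by 2.66 (SE 0.34, limma adjusted p = 0.0254), which marks it as a difference between groups under the same contrast. IL6 had -0.47 in PA embryos, with lower values in PA HB in 3 of 3 pairs, and fell by 3.13 in IVV embryos. A probe without a symbol also passed under this contrast, with a difference of 3.39. With the replicate number as a block in the 12 arrays, no named gene passed this test.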

How the results depend on the processing

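The 11 genes of the paired comparison became 1 after quantile normalization, 7 with the mean of a gene's probes, 0 with no replicate block and 2 with the block in all 12 arrays, and leaving out a replicate number gave 1 to 20. Scaling the arrays, robust moderation and dropping the fold limit each gave 11 (9 of the same genes after scaling), and the more variable 50% of probes gave 15. The 1 gene of the unpaired comparison became 0 after scaling, 0 after quantile normalization, 0 with the 6 PA arrays alone and 2 with a replicate block, and leaving out a single array gave 1 to 2. CAST, a protease inhibitor, was the second gene without PA HB replicate 3, and it was chosen after its values were seen. The difference between PA and IVV changes was called for 1 gene, and for 0 with a replicate block. Over the 80 genes examined, no gene that changed turned its direction in any alternative. Every pair of these genes was at least 2-fold in 1 direction, so leaving out a pair or the block could not turn them. Their calls were lost in 1 (SLC36A2) to 7 (FOLR1) of 10 alternatives of the paired fit. SLC36A2 passed in 9 of 10 alternatives of the paired fit, with changes of 2.30 to 3.67, and had an adjusted p of 0.0641 with no replicate block. Reversals were all in genes that did not pass in PA embryos. APOE, at -0.02, had 0.0057 after scaling and 0.0029 after quantile normalization in both fits. With replicates left out, APOE ranged from -0.126 to 0.110 in the paired fit and from -0.111 to 0.0666 in the unpaired fit, MAP1LC3B from -0.307 to 0.0770 and from -0.346 to 0.159, CYCS from -2.19 to 0.36 and from -1.81 to 0.25, and SUMO4 from -0.0418 to 1.77 in the paired fit. The turns came without replicate 2 (APOE, MAP1LC3B and CYCS) or 3 (SUMO4). The cause of each of these shifts was not tested, except that leaving out a pair leaves 2 pairs and 1 residual degree of freedom.

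Signal over background cannot be read from ratios, so genes near background cannot be told from well measured ones. A fit of 3 pairs has 2 residual degrees of freedom and leans on the spread shared across probes. For GNPDA1, KCTD3, HARBI1, COPS7A and several genes that did not pass, the value given is that of a single probe, and other probes of the gene did not show it.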
